A study of Homo sapiens with 6 samples.

Results

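Expression of 45 genes of the Wnt pathway was compared between Mum-2b cells in which NELFCD was knocked down and control Mum-2b cells. The 45 genes include 10 Wnt ligands, 10 Frizzled receptors, 5 co-receptors or alternative receptors and 7 secreted or membrane regulators. The others are 7 genes of beta-catenin, its destruction complex and intracellular inhibitors of the pathway, 4 TCF/LEF transcription factors and 2 genes of ligand lipidation and secretion. All 45 were taken by symbol from the 58735 genes of the deposited count table and were found there. Of these, 35 had a mean of at least 10 counts per library, 34 passed the filter for testing, and 5 had no count in any library.

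Mum-2b is described in the labels as a uveal melanoma cell line. The knockdown group holds 3 libraries of the genotype NELFCD_knockdown, and the control group holds 3 libraries of the genotype WT, named NC. The knockdown libraries carry 1 hairpin number, so an effect of the target cannot be told apart from an off-target effect of that short hairpin RNA. RNA was sequenced from whole cultures, and the labels do not say whether the replicates were separate cultures. The p-values therefore measure the spread between these libraries, which may be technical. With the replicate block described below, they measure only the spread of the knockdown-to-control difference across replicate numbers.

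The NELFCD protein belongs to the negative elongation factor (NELF) complex, which keeps paused RNA polymerase II near promoters. Wnt ligands are lipid-modified secreted glycoproteins that bind Frizzled receptors together with LRP5 or LRP6, or with ROR1, ROR2 or RYK. In the canonical branch, binding stops the destruction complex of AXIN1, APC and GSK3B from degrading beta-catenin, which then acts with TCF/LEF factors on target genes. In the non-canonical branches, Frizzled signals act on cell polarity, movement and calcium, and in melanoma WNT5A is the ligand best known for such signalling.

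The libraries held 14306733 to 16656630 counts each. NELFCD had 20.7, 37.4 and 40.3 CPM (the count scaled to effective library size) in knockdown replicates 1 to 3, against 65.5, 88.3 and 83.5 CPM in control replicates 1 to 3, which left 41.5% of the control level (log2 fold change -1.30, adjusted p = 0.00046 in edgeR with the replicate block described below). Replicate 1 of both groups stood apart from replicates 2 and 3. Between replicates 2 and 3 the chi-square per degree of freedom over genes was 2.02 in the knockdown and 2.16 in the control, where counting noise gives about 1, against 86.1 to 101 for replicate 1 with either of the others. Of 10 melanocyte lineage markers, OCA2 had no count in any library, and TYR, DCT, SOX10, PMEL and S100B stayed at or under 0.959 CPM in every library. TYRP1, MLANA and MITF were at 0.637 to 9.17 CPM and RAB27A at 10.6 to 23.4 CPM. Most of the defining melanocyte markers were therefore at or near 0, and the cells are called Mum-2b here. Of 6 epithelial markers, the keratin genes KRT8 and KRT18 were at 234 to 901 CPM and CLDN4 at 15.4 to 59.1 CPM. The epithelial markers EPCAM, CDH1 and KRT19 stayed at or under 0.685 CPM in every library. The summed level of 5 endothelial markers, nearly all of it CDH5, was 54.33 to 58.01 CPM in the knockdown and 125.6 to 165.1 CPM in the control, and the keratin-led sum of 6 epithelial markers was 1083 to 1480 CPM in the knockdown and 745.9 to 1348 CPM in the control. Within the epithelial list the members went opposite ways. In edgeR with the replicate block KRT18 rose (log2 fold change 0.49, adjusted p = 0.0093) and CLDN4 fell (-1.40, adjusted p = 0.00015). KRT8 was not called (0.21, adjusted p = 0.17 in the same fit). KRT18 shares 16.3% of its exon bases with KRT8, on the opposite strand, and the part of KRT8 in the KRT18 counts was not tested. KRT19 was too low to test, with 2, 1 and 1 counts in the knockdown and 10, 9 and 10 in the control. The part of these markers' changes in the results below was not tested.

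Changes were tested in edgeR with and without the replicate number as a block, that is, an additive term that compares knockdown and control within each replicate number. The threshold for a call was 0.05 on p-values adjusted by Benjamini-Hochberg over the 14844 genes tested. Without the block edgeR called 0 of the 14844 genes and 0 of the 34 Wnt pathway genes. At an unadjusted p under 0.05 there were 954 genes, among them WNT7B, FZD2, FZD3 and FZD6, and the smallest adjusted p of a Wnt pathway gene was 0.529, for WNT7B. With the block, 6 of the 34 fell (17.6%), against 8.01% of all genes tested, and 1 rose (2.94%), against 5.48% of all genes tested. The 6 that fell were the ligands WNT5B and WNT7B, the receptors FZD2 and FZD6 and the secreted regulators SFRP1 and DKK3, and the 1 that rose was the receptor FZD4. In replicates 2 and 3 alone, 9 fell and 3 rose, where 13.7% of all genes fell and 11.7% rose. The error of that fit rests on replicates whose chi-square per degree of freedom was 2.02 in the knockdown and 2.16 in the control. It called 25.3% of all genes tested, so a pass in it is given below as a description. Among all blocked calls 40.6% were rises, and 54.9% with upper-quartile in place of TMM scaling. Calls below are from the fit with the block unless stated. The 34 had a median log2 fold change of -0.12 (-0.13 without the block), against 0.00 over all genes tested, and 23 of them were below 0, as were 50% of all genes tested. The median in replicates 2 and 3 alone was -0.08. The 11 genes that were not tested had too few counts, and are described by their levels.

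The summed level of Wnt ligand transcripts was lower in every knockdown library than in every control library. FPKM values, the deposited levels scaled to gene length and library size by the authors, allow levels of different genes to be added. Over all 19 human Wnt ligand genes, of which 13 had a count, the summed level was 12.0, 14.3 and 14.8 FPKM in knockdown replicates 1 to 3, against 25.6, 27.2 and 27.2 FPKM in control replicates 1 to 3. WNT5B and WNT7B together made up 22.2%, 59.4% and 64.6% of this sum in the knockdown libraries, against 62.3%, 78.7% and 78.7% in the control libraries. Whether fewer cells expressed these ligands or each cell held less of their RNA cannot be told apart in bulk samples.

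**Figure D1:**
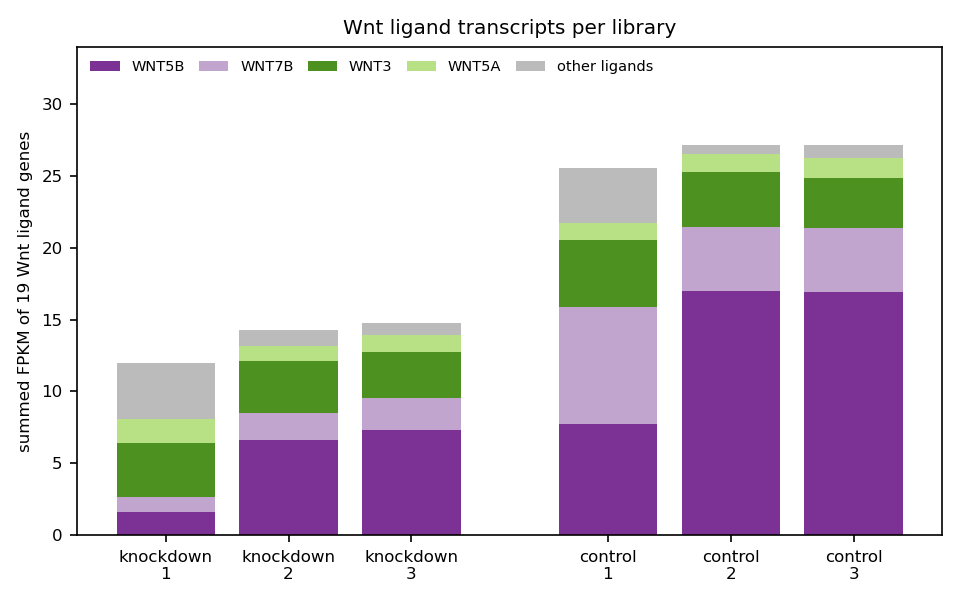
Summed FPKM of the 19 Wnt ligand genes in each library (y axis, from 0), split by colour into WNT5B, WNT7B, WNT3, WNT5A and all other ligands, with the 3 knockdown libraries left of the 3 control libraries. Knockdown libraries reach 12.0 to 14.8 FPKM and control libraries 25.6 to 27.2 FPKM, and the WNT5B and WNT7B segments differ most between the groups.

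WNT5B, a ligand known mainly for non-canonical signalling, was the most abundant Wnt ligand in replicates 2 and 3 of both groups. It had 7.24, 28.6 and 31.8 CPM in knockdown replicates 1 to 3, against 34, 72.8 and 72.4 CPM in control replicates 1 to 3. Each knockdown library was below each control library, although knockdown replicate 3 and control replicate 1 lay close together. The group means were 22.5 ± 13.3 CPM in the knockdown and 59.7 ± 22.3 CPM in the control (SD, n = 3 each). The log2 fold change was -1.51 ± 0.174 (SE, adjusted p = 0.0036 in edgeR with the block, and 0.79 without it).

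WNT5B (ENSG00000111186) lies on chromosome 12, 1529891 to 1647243, on the plus strand of hg38. RefSeq gives it a pair of start sites with a promoter sequence in GRCh38.p14, and both lie inside this span. The 250 bases before each site are shown for this ligand, which fell, for FZD4, the receptor that rose, and for DKK1, a regulator known as a target of canonical Wnt signalling. Capitals mark matches on either strand to 3 forms of the TCF/LEF core, namely the form CTTTGAT, the form CTTTGTT and the form CTTTGAA, and to the TATA box in the form TATAAA. The stretches are chr12:1616806-1617055 and chr12:1628981-1629230 (plus strand) for WNT5B, chr11:86955396-86955645 (minus strand) for FZD4 and chr10:52314031-52314280 (plus strand) for DKK1.
WNT5B, upstream site: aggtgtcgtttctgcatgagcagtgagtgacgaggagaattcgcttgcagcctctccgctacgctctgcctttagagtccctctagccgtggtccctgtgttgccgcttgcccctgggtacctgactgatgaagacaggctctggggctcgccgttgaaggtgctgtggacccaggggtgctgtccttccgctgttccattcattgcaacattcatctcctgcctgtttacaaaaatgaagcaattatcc
WNT5B, downstream site: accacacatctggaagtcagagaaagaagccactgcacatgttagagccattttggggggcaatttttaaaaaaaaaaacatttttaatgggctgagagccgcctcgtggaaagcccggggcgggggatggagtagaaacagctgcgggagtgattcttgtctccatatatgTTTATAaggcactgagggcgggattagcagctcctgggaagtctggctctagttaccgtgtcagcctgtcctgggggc
FZD4: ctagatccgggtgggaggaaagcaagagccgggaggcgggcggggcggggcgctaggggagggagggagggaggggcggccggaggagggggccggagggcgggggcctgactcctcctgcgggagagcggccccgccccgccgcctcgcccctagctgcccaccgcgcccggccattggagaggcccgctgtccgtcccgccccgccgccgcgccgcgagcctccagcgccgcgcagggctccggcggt
DKK1: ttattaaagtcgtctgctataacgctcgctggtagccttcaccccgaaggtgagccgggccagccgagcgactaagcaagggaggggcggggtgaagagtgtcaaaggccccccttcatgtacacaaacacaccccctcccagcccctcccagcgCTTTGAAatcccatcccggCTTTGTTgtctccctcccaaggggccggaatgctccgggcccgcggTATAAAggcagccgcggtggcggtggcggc

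The WNT5B stretches were 54.8% and 50.8% G or C, close to the median of 58.0% over 35116 RefSeq promoters, and the FZD4 stretch was 80.8%. The upstream WNT5B stretch and the FZD4 stretch held no match, and the downstream WNT5B stretch held 1 TATAAA, on the opposite strand. The DKK1 stretch held CTTTGAA once, then CTTTGTT once and nearest the start TATAAA once, all on the strand of the gene. RefSeq promoters were matched for 30 of the 45 genes, 39 promoters in all. One of the 3 TCF/LEF forms was present in 3 of these 39, those of DKK1, TCF7 and TCF7L2, against 9.97% of all promoters, and TATAAA was present in 4 of the 39, against 10.7% of all promoters. A match is a run of letters and not a shown site of binding.

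WNT7B (ENSG00000188064, chromosome 22, 45920362 to 45977129, minus strand), a ligand that can signal through beta-catenin and is known for its roles in lung and vessel development, had the lowest ratio of knockdown to control of the ligands in replicate 1. It had 5.58, 9.51 and 11.2 CPM in knockdown replicates 1 to 3, against 42.1, 22.2 and 22.7 CPM in control replicates 1 to 3. The groups did not overlap, and control replicate 1 was the highest library while knockdown replicate 1 was the lowest. Knockdown libraries held 13.3%, 42.8% and 49.5% of the control with the same number. Its log2 fold change was -1.68 ± 0.369 (SE, adjusted p = 0.042 in edgeR with the block, and 0.53 without it). The blocked call was lost without pair 2 (adjusted p = 0.264), without pair 3 (0.164) and with no filter on low counts (0.487), and without pair 1 the log2 fold change was -1.12. With a batch term for replicate 1 in place of the block, WNT7B was not called either (log2 fold change -1.68, adjusted p = 0.0534 in edgeR).

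The other 3 ligands that could be tested were not called. WNT3, a canonical ligand, was at 16.9, 15.6 and 13.9 CPM in the knockdown, against 20.6, 16.7 and 15.1 CPM in the control. WNT5A, the non-canonical ligand closest to WNT5B in sequence, was at 12.5, 7.69 and 8.77 CPM in the knockdown, against 8.64, 8.99 and 10.1 CPM in the control. Knockdown WNT5A was thus highest in replicate 1 and below the control in replicates 2 and 3. WNT7A was at 4.12, 1.27 and 1.37 CPM in the knockdown and 5.07, 1.2 and 1.19 CPM in the control, with replicate 1 the high library in both groups. WNT9A had 5.98, 0.364 and 0.137 CPM in the knockdown and 5.62, 0.354 and 0.125 CPM in the control, and did not pass the filter because replicates 2 and 3 held 2 to 6 counts. WNT4, WNT10B and WNT11 had 0 to 7 counts per library and WNT6 had none, where a count of 0 allows up to 3 counts, or 0.182 to 0.206 CPM in a knockdown library and 0.188 to 0.212 CPM in a control library. These limits cover counting error only.

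Among the receptors, the more abundant FZD6 and FZD2 fell and the less abundant FZD4 rose. In FPKM the Frizzled order was FZD6 (35.6 in the knockdown and 50.2 in the control), FZD2 (8.53 and 13.1), FZD8 (7.01 and 6.42), FZD7 (3.28 and 3.5), FZD4 (3.0 and 2.28), FZD5 (1.53 and 1.44), FZD1 (0.954 and 1.15) and FZD3 (0.457 and 0.654), with the knockdown mean before the control mean. Between neighbours in this order the libraries of FZD2 and FZD8 overlapped in the knockdown, those of FZD7 and FZD4 in both groups, those of FZD4 and FZD5 in both groups, and those of FZD5 and FZD1 in the control. FZD9 and FZD10 had no count. The summed Frizzled level was 55.7, 62.5 and 63.0 FPKM in knockdown replicates 1 to 3, against 80.2, 78.4 and 77.5 FPKM in control replicates 1 to 3. FZD6 alone made up 50.9% to 63.9% of it in the knockdown and 62.1% to 65.5% in the control.

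**Figure D2:**
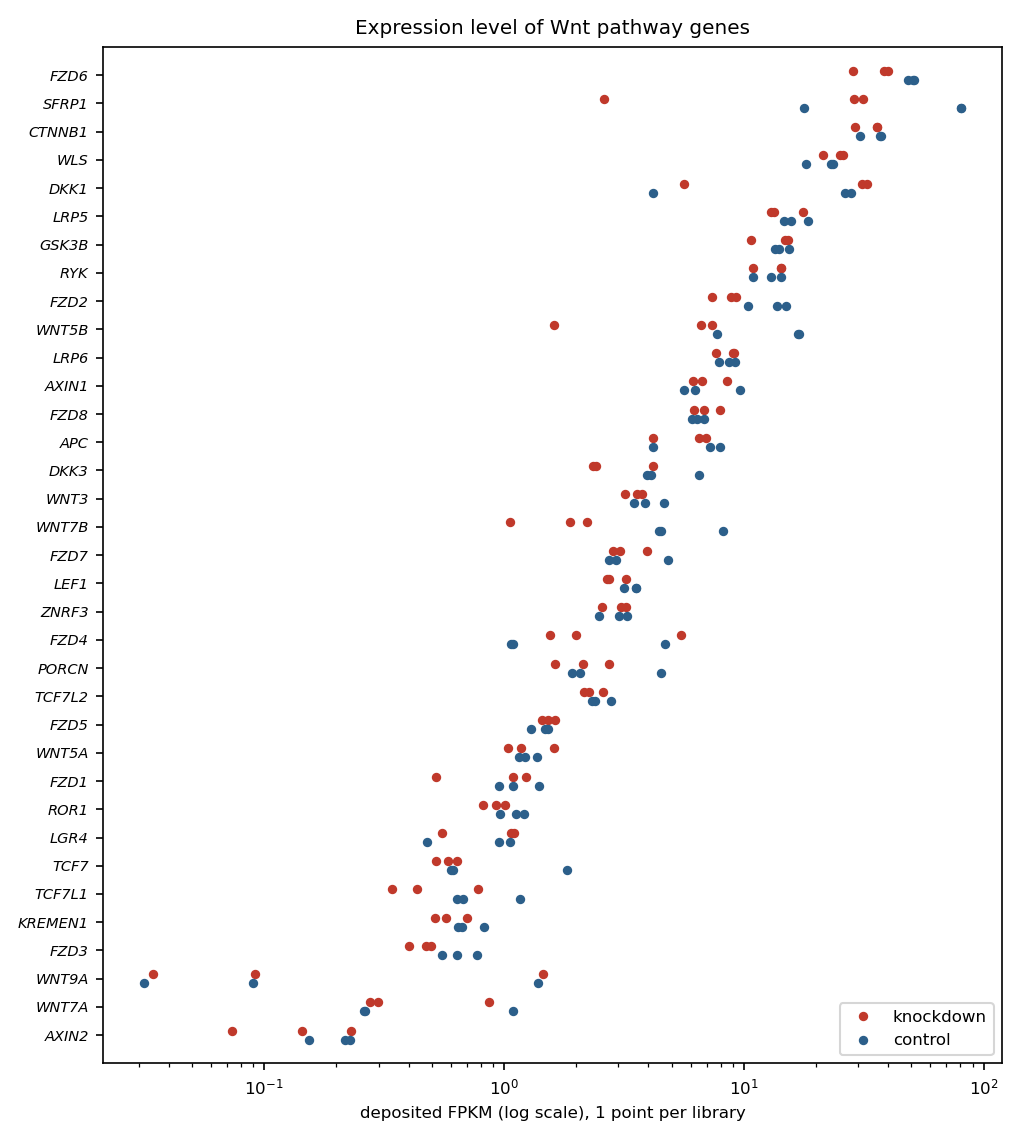
Deposited FPKM of the Wnt pathway genes with a mean of at least 0.1 FPKM (x axis, log scale), ordered by the mean over all libraries, with 1 point per library and knockdown points above control points. FZD6, SFRP1 and CTNNB1 head the order, and WNT5B, WNT7B and FZD2 are among the genes whose knockdown points all lie left of the control points.

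FZD6 (ENSG00000164930, chromosome 8, 103298433 to 103332866, plus strand), a receptor known for planar polarity and for restraining canonical signalling, had 120, 163 and 158 CPM in knockdown replicates 1 to 3, against 212, 207 and 195 CPM in control replicates 1 to 3. The groups did not overlap, and the means were 147 ± 23.2 CPM in the knockdown and 205 ± 8.58 CPM in the control (SD, n = 3 each). FZD6 had a log2 fold change of -0.49 ± 0.0966 (SE, adjusted p = 0.014 in edgeR with the block, and 0.66 without it). FZD2 (ENSG00000180340, chromosome 17, 44557459 to 44559570, plus strand), a receptor for WNT5A and other ligands, had 16.3, 18.8 and 19.7 CPM in knockdown replicates 1 to 3, against 22.5, 28.9 and 31.6 CPM in control replicates 1 to 3. Its groups did not overlap either, and the pairs held 72.4%, 65.0% and 62.5% of the control. For FZD2 the log2 fold change was -0.59 ± 0.0944 (SE, adjusted p = 0.0066 in edgeR with the block, and 0.60 without it). FZD6 and FZD2 were called in each of 10 fits that either had a replicate term or left replicate 1 out.

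FZD4 (ENSG00000174804, chromosome 11, 86945679 to 86955391, minus strand), the receptor of Norrin in retinal vessels, was higher in the knockdown within each replicate number. It had 42.1, 11.5 and 14.8 CPM in knockdown replicates 1 to 3, against 35.2, 7.86 and 8.0 CPM in control replicates 1 to 3. The groups overlapped because replicate 1 was the high library in both. The log2 fold change was 0.52 ± 0.132 (SE, adjusted p = 0.034 in edgeR with the block, and 0.9999 without it). The call was lost without pair 2 (adjusted p = 0.0906) and without pair 3 (0.125), and without the block and without knockdown replicate 1 the log2 fold change was -0.38. FZD4 exons share 18.9% of their bases with PRSS23, a protease gene on the opposite strand, and whether counting used strand is not given in the sources used here. PRSS23 fell, with 360, 169 and 168 CPM in the knockdown against 416, 270 and 253 CPM in the control (adjusted p = 0.0098 in edgeR with the block), and its part in the FZD4 counts was not tested.

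FZD3, which acts in axon guidance and polarity, had 5.78, 6.54 and 6.85 CPM in the knockdown, against 7.74, 8.78 and 10.6 CPM in the control, without overlap. Its log2 fold change of -0.49 did not pass (adjusted p = 0.055 in edgeR with the block), but it passed in replicates 2 and 3 alone (-0.54, adjusted p = 0.0115) and in 4 of the 10 fits named above. Over the 34 genes tested, 5 had every knockdown library below every control library (14.7%), namely WNT5B, WNT7B, FZD2, FZD3 and FZD6, against 7.38% of all genes tested. None of the 34 had every knockdown library above every control library, against 7.52% of all genes tested. The receptors FZD1, FZD5, FZD7 and FZD8 were not called, with log2 fold changes from -0.29 to 0.14 and overlapping groups.

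**Figure D3:**
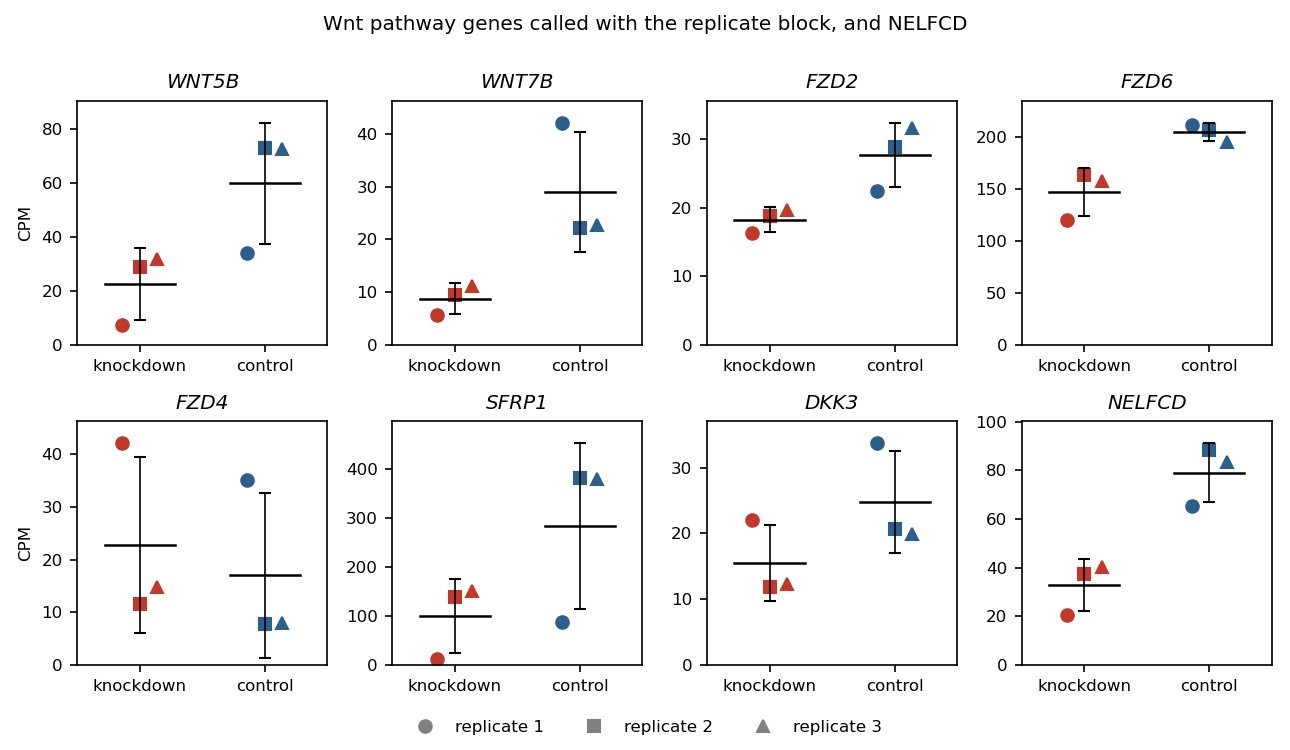
CPM (y axis, from 0) of the 7 Wnt pathway genes called with the replicate block and of NELFCD, in knockdown (left, red) and control (right, blue) libraries, with 1 symbol per replicate number, a line at the mean and bars of 1 SD (n = 3). The groups of WNT5B, WNT7B, FZD2, FZD6 and NELFCD do not overlap, while those of FZD4, SFRP1 and DKK3 overlap through replicate 1.

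The co-receptors were not called. LRP6 was at 82.8, 93.2 and 94.7 CPM in the knockdown and 83.5, 89.4 and 94.2 CPM in the control. LRP5 was at 114, 80.6 and 83.1 CPM in the knockdown and 116, 90.2 and 96.8 CPM in the control. The pseudokinase receptor RYK was at 91.2, 115 and 116 CPM in the knockdown and 89.6, 115 and 104 CPM in the control. Of the 4 co-receptors and alternative receptors tested, 0 were called in edgeR with the block or without it, 0 had an unadjusted p under 0.05 without it, and the log2 fold changes ran from -0.24 to 0.06. LRP5 passed in replicates 2 and 3 alone, with a log2 fold change of -0.20 (adjusted p = 0.0054 in edgeR). ROR1, a receptor of WNT5A, was the lowest of these at 5.72 to 6.78 CPM in the knockdown and 6.58 to 8.07 CPM in the control, and ROR2 had no count.

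SFRP1 and DKK3 fell among the secreted regulators. SFRP1 (ENSG00000104332, chromosome 8, 41261958 to 41309497, minus strand) encodes a secreted protein with a Frizzled-like domain that binds Wnt ligands. It had 13.0, 138 and 150 CPM in knockdown replicates 1 to 3, against 86.9, 381 and 380 CPM in control replicates 1 to 3. Replicate 1 was the low library of each group, so the groups overlapped, but each knockdown library held less than the control of the same number, with 14.9%, 36.1% and 39.4% of it. The log2 fold change was -1.75 ± 0.297 (SE, adjusted p = 0.035 in edgeR with the block, and 0.98 without it), the lowest of the 34 genes in that fit. The call was lost without pair 2 (adjusted p = 0.182), without pair 3 (0.152) and with no filter on low counts (0.320), and the log2 fold change without pair 1 was -1.41.

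DKK3 (ENSG00000050165, chromosome 11, 11963106 to 12009769, minus strand), a divergent member of the Dickkopf family, had 22.1, 11.9 and 12.3 CPM in knockdown replicates 1 to 3, against 33.7, 20.7 and 19.9 CPM in control replicates 1 to 3. Knockdown replicate 1 lay above control replicates 2 and 3, and the knockdown held 65.6%, 57.6% and 61.5% of the control by replicate number. DKK3 had a log2 fold change of -0.70 ± 0.0978 (SE, adjusted p = 0.0039 in edgeR with the block, and 0.86 without it).

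DKK1, a secreted inhibitor that binds LRP5 and LRP6 and whose promoter is shown above, was at 12.9, 71.8 and 68.6 CPM in the knockdown, against 9.39, 57.8 and 61.6 CPM in the control. It was higher in the knockdown within each replicate number, at 137%, 124% and 111% of the control, and did not pass (log2 fold change 0.28, adjusted p = 0.055 in edgeR with the block). In replicates 2 and 3 alone it passed (adjusted p = 0.0037 in edgeR). The Dickkopf receptor KREMEN1, the ubiquitin ligase ZNRF3 that removes Frizzled receptors, and the R-spondin receptor LGR4 were not called, with log2 fold changes from -0.24 to 0.16. RNF43, the ligase related to ZNRF3, had 1 count over all 6 libraries together.

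Of the genes of beta-catenin, its destruction complex and intracellular pathway inhibitors 0 were called in edgeR with the block or without it. CTNNB1, which encodes beta-catenin, was at 360, 430 and 433 CPM in the knockdown and 371, 443 and 439 CPM in the control. GSK3B was at 91.0, 121 and 125 CPM in the knockdown and 112, 125 and 114 CPM in the control. APC was at 54.2, 86.8 and 81.6 CPM in the knockdown and 53.0, 98.4 and 89.7 CPM in the control, and AXIN1 at 66.7, 50.2 and 46.1 CPM in the knockdown and 73.6, 46.4 and 42.1 CPM in the control. The groups of these 4 genes overlapped. Of the 5 tested genes of this group 0 had an unadjusted p under 0.05 without the block. APC passed in replicates 2 and 3 alone, with a log2 fold change of -0.16 (adjusted p = 0.031 in edgeR). AXIN2, a scaffold protein and a widely used target of canonical signalling, shares 25.2% of its exon bases with another gene and was low at 6, 20 and 11 counts in the knockdown and 12, 16 and 19 counts in the control. Its log2 fold change of -0.44 did not pass (adjusted p = 0.49 in edgeR with the block). NKD1 had no count. NKD2, an inhibitor of Dishevelled like NKD1, had 15 counts in knockdown replicate 1, 1 count in control replicate 1 and none in the other libraries.

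All 4 TCF/LEF factors had a log2 fold change below 0 with the block, as had 50% of all genes tested, with a median of -0.44. Their median in replicates 2 and 3 alone was -0.16, and TCF7L2 was at 0.05. Of the 4, 0 were called in edgeR with the block or without it, where 0 had an unadjusted p under 0.05. LEF1 was at 15.2, 14.4 and 17.4 CPM in the knockdown and 17.3, 19 and 19 CPM in the control. TCF7L2 was at 15.2, 17.4 and 15.4 CPM in the knockdown and 19.2, 15.6 and 16.1 CPM in the control. TCF7L1, often a repressor, was at 3.59, 1.51 and 1.92 CPM in the knockdown and 5.28, 2.97 and 2.81 CPM in the control (log2 fold change -0.68, adjusted p = 0.087 in edgeR with the block). TCF7 was at 6.11, 5.27 and 6.44 CPM in the knockdown and 18.8, 6.16 and 6.0 CPM in the control. Control replicate 1 was the high library. The log2 fold change was -0.64 (adjusted p = 0.23 in edgeR with the block) and -0.06 without pair 1, and it passed without pair 3 (-0.99, adjusted p = 0.00094) and with no filter (-0.66, adjusted p = 0.0042).

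For ligand export, WLS, the carrier that brings Wnt proteins to the cell surface, was at 99, 113 and 117 CPM in the knockdown and 82.5, 103 and 104 CPM in the control. It was higher in the knockdown within each replicate number and did not pass (log2 fold change 0.19, adjusted p = 0.085 in edgeR with the block). In replicates 2 and 3 alone it passed (0.15, adjusted p = 0.0254 in edgeR), as it did in 4 of the 10 fits with a replicate term or without replicate 1. PORCN, the acyltransferase that attaches the lipid, was at 8.57, 6.42 and 4.93 CPM in the knockdown and 13.8, 5.73 and 6.25 CPM in the control, with overlapping groups.

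**Figure D4:**
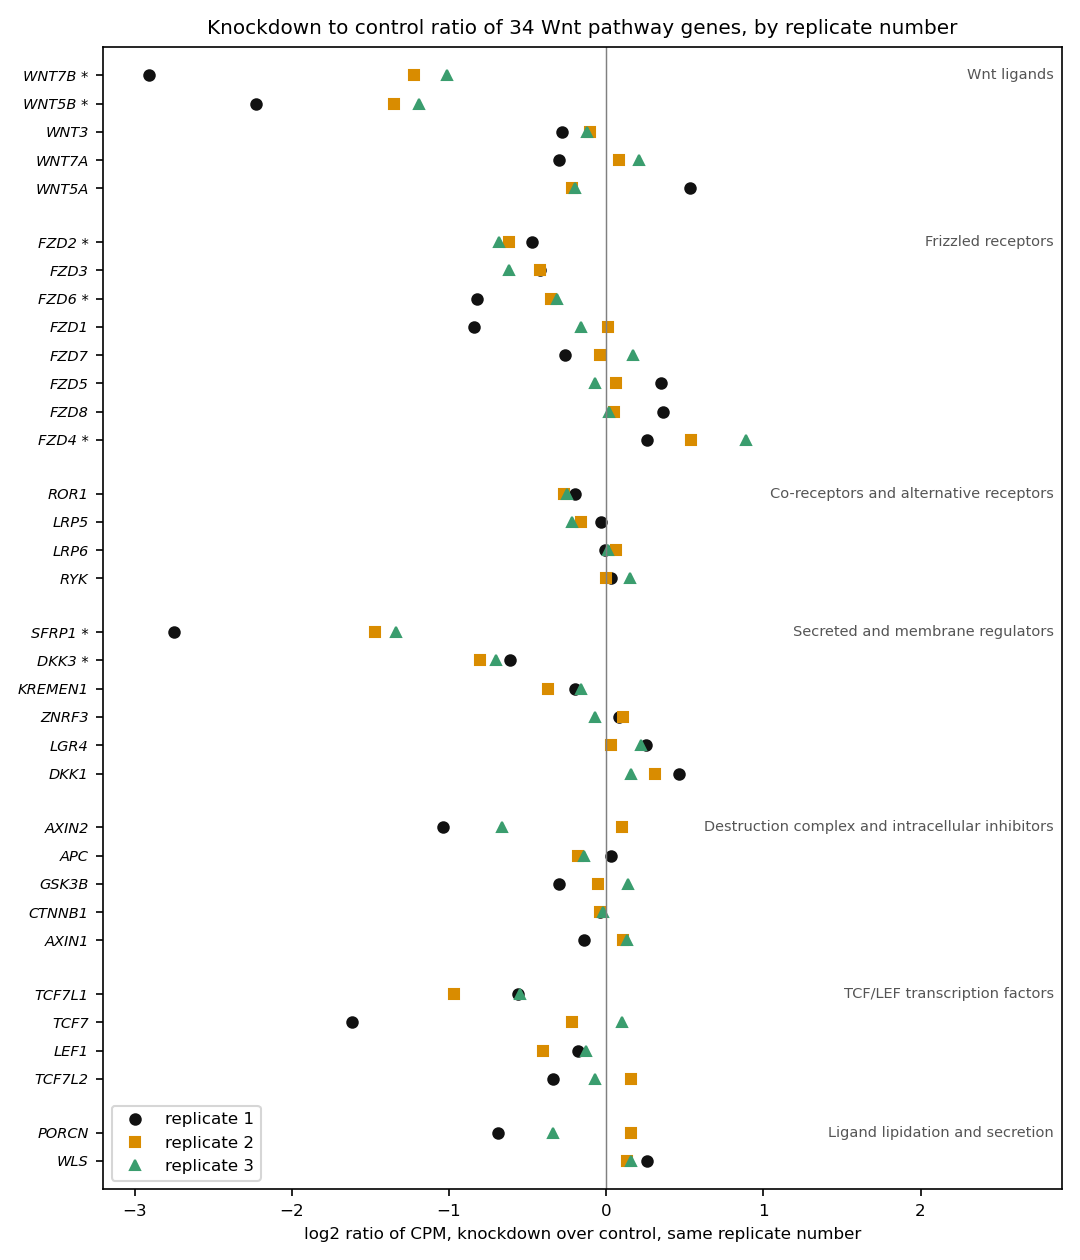
Log2 ratio of CPM, knockdown over control of the same replicate number (x axis), for the 34 tested Wnt pathway genes grouped by role, with 1 symbol per replicate number and an asterisk at genes called with the replicate block. WNT7B, WNT5B and SFRP1 lie left of -1 in every pair, with replicate 1 farthest left at -2.91, -2.23 and -2.75, and the co-receptors stay within 0.27 of 0.

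Wider Wnt genes were read out in 4 further lists. Of 32 other ligands, R-spondins and secreted modulators, 12 had no count and 5 were tested, of which 1 fell, against 8.01% of all genes tested. It was TRABD2A, a membrane protease that inactivates Wnt proteins, at 33.0 ± 8.74 CPM in the knockdown and 41.0 ± 9.96 CPM in the control (SD, n = 3 each). Its log2 fold change was -0.32 (adjusted p = 0.039 in edgeR with the block), and its call was lost without pair 2 or pair 3. TRABD2A was called in 6 of the 10 fits with a replicate term or without replicate 1. LRP4 and WNT2B were not called, at 16.2 ± 4.94 and 5.33 ± 4.71 CPM in the knockdown and 17.4 ± 6.24 and 5.05 ± 5.66 CPM in the control (SD, n = 3 each).

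Of 29 genes of planar polarity and non-canonical signalling 25 were tested, 3 fell (12%, against 8.01% of all genes tested) and 0 rose (against 5.48%). In replicates 2 and 3 alone 6 fell and 1 rose, where 13.7% of all genes fell and 11.7% rose. CELSR2, a polarity cadherin, was at 12.2, 6.97 and 8.02 CPM in the knockdown, against 23.4, 13.4 and 14.9 CPM in the control, with a log2 fold change of -0.93 (adjusted p = 0.0020 in edgeR with the block). Its groups did not overlap. VANGL1, a core polarity membrane protein, fell by 0.64 on the log2 scale (adjusted p = 0.04997 in edgeR with the block). The VANGL1 pairs held 42.3%, 78.9% and 73.6% of the control, and its log2 fold change was -0.39 without pair 1. The co-receptor PTK7 fell by 0.22 (adjusted p = 0.044 in edgeR with the block). The call of PTK7 was lost without pair 2 (adjusted p = 0.225) and without pair 3 (0.288). PTK7 was called in 6 of the 10 fits with a replicate term or without replicate 1. The small GTPase genes RAC1 and RHOA were not called, at 570 ± 96.4 and 509 ± 28.4 CPM in the knockdown and 615 ± 25.2 and 533 ± 22.5 CPM in the control (SD, n = 3 each). The list median was -0.07.

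Of 38 further intracellular and nuclear genes 34 were tested, 4 fell (11.8%, against 8.01% of all genes tested) and 1 rose (2.94%, against 5.48%). The list median was -0.06, and -0.03 in replicates 2 and 3 alone. The beta-catenin co-activators PYGO1 and PYGO2 both fell, PYGO1 to 20.2 ± 5.95 CPM in the knockdown, against 28.3 ± 5.84 CPM in the control, and PYGO2 to 30.8 ± 2.77 CPM in the knockdown, against 39.7 ± 1.34 CPM in the control (SD, n = 3 each). Their log2 fold changes were -0.50 (adjusted p = 0.013) and -0.37 (adjusted p = 0.022) in edgeR with the block. CTNNBIP1, which blocks beta-catenin from TCF factors, fell by 0.39 (adjusted p = 0.0345 in edgeR with the block). The kinase CSNK1G2, chosen after its values were seen, fell by 0.25 (adjusted p = 0.026 in the same fit). Of the 10 fits with a replicate term or without replicate 1, CTNNBIP1 was called in 6, CSNK1G2 in 7, PYGO2 in 9 and PYGO1 in 10. The call of PYGO2 was lost without pair 2 (adjusted p = 0.151 in edgeR with the block). TLE4, a co-repressor of TCF factors, rose, with 49.0, 177 and 177 CPM in the knockdown against 33.0, 149 and 143 CPM in the control (log2 fold change 0.36, adjusted p = 0.018 in edgeR with the block). CTNND1 and SMARCA4 were not called, at 302 ± 28.5 and 270 ± 25.3 CPM in the knockdown and 311 ± 40.1 and 260 ± 26.1 CPM in the control (SD, n = 3 each). Without pair 2, 1 gene of this list fell and 1 rose, and without pair 3, 2 fell and 2 rose.

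Of 30 genes known as Wnt targets in one tissue or another 23 were tested, 9 fell (39.1%, against 8.01% of all genes tested) and 2 rose (8.70%, against 5.48%), and the list median was -0.29. Many of them are also targets of other pathways. The Eph receptor EPHB2 had 28.6, 59.6 and 55.4 CPM in the knockdown, against 57.7, 115 and 114 CPM in the control (log2 fold change -1.0, adjusted p = 0.00015 in edgeR with the block). Cyclin D1, CCND1, had 232, 459 and 467 CPM in the knockdown, against 591, 777 and 796 CPM in the control (log2 fold change -0.96, adjusted p = 0.0036 in edgeR with the block). PPARD, a nuclear receptor, fell by 0.96 on the log2 scale. The 2 rises were ID2 and MYC. ID2, a low inhibitor of differentiation, was at 2.48 ± 0.389 CPM in the knockdown and 0.935 ± 0.335 CPM in the control (SD, n = 3 each). Its log2 fold change was 1.40 (adjusted p = 0.036 in edgeR with the block), on 44, 37 and 33 counts in the knockdown and 8, 16 and 18 in the control. Of the 10 fits with a replicate term or without replicate 1, ID2 was called in 8. In DESeq2 with the block it was not called (adjusted p = 0.0608). MYC, chosen after its values were seen, was at 404, 354 and 380 CPM in the knockdown against 283, 293 and 303 CPM in the control. FOSL1 and CD44 were not called, at 939 ± 148 and 836 ± 4.49 CPM in the knockdown and 893 ± 154 and 785 ± 82.2 CPM in the control (SD, n = 3 each). Both passed as rises in replicates 2 and 3 alone. The log2 fold change there was 0.09 for FOSL1 (adjusted p = 0.031 in edgeR) and 0.18 for CD44 (adjusted p = 4.6e-06 in edgeR). Without pair 2, 6 fell and 1 rose. In replicates 2 and 3 alone 24 targets were tested, 9 fell and 5 rose, where 13.7% of all genes fell and 11.7% rose. The median of the 23 in that fit was -0.21. The list of targets was chosen with earlier results of these data known, so its count is a description.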

How the data were processed

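RNA-seq of 3 knockdown and 3 control Mum-2b libraries was used. Per the labels' protocols, RNA came from TRNzol or a Quick-RNA column, unspecified per sample, and went into SMARTER mRNA-seq libraries. The deposited gene counts are raw counts per gene and library with Ensembl identifiers, coordinates and lengths, per the file headers. The submitters' processing notes name the build hg38. Aligner, counter and strand setting are not given in the sources used here. The deposited FPKM values equal counts divided by gene length and by a constant of 0.9816 to 1.073 times the library total, and the authors' FPKM was used only to compare or add levels of different genes.

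Counts were tested with edgeR 4.0.16 in R 4.3.3 (filterByExpr, TMM scaling with factors of 0.9894 to 1.034, robust quasi-likelihood F-test, Benjamini-Hochberg adjustment, threshold 0.05), with DESeq2 1.42.0 and limma-voom (limma 3.58.1) as alternatives. CPM uses TMM-scaled library sizes. SE is the standard error of the log2 fold change and SD the standard deviation over 3 libraries. An exact permutation test of 3 against 3 libraries cannot go below 0.1 and was not used.

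The design of record had no replicate term, and the replicate block was an alternative. Knockdown and control libraries of one number shared their deviations from the group mean (r over genes 0.838 for number 1, 0.629 for number 2 and 0.616 for number 3), so the numbers were taken as pairs. The pairing comes from the data, not the labels, and rests on number 1, since knockdown replicate 2 correlated as well with control replicate 3 (0.627). The common coefficient of variation was 32.6% without the block (4 residual degrees of freedom) and 8.17% with it (2).

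The rule for naming genes took those called and those without overlap at a log2 fold change of at least 0.5 in size. It also took the 2 of highest FPKM per role, and up to 4 called and 2 uncalled genes from each wider list. Other uncalled genes were shown by library outside this rule, namely FZD3, WNT5A, WNT7A, WNT9A, LRP6, APC, AXIN1, AXIN2, NKD2, TCF7 and TCF7L1. Members, lists and tests were chosen with earlier results of these data known. Exon overlaps are from GENCODE 29, and promoters from RefSeq (GRCh38.p14).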

Additional observations from a re-analysis of the deposited data

Results flagged for a closer look

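The effect of the knockdown in replicate 1 differed from that in replicates 2 and 3 for 7 of the 34 tested Wnt pathway genes, in an edgeR interaction test added after the data were seen and adjusted over all genes, where 13% of all genes tested differed. The log2 difference, replicate 1 minus replicates 2 and 3, was -1.79 for WNT7B (adjusted p = 4.5e-10), -1.56 for TCF7 (3.1e-05), -1.34 for SFRP1 (3.0e-16), -0.96 for WNT5B (2.8e-05), -0.49 for FZD6 (7.3e-07), -0.34 for GSK3B (0.0040) and 0.75 for WNT5A (0.046). WNT7B, SFRP1, WNT5B and FZD6 were lower in the knockdown in all 3 pairs and lowest in pair 1. TCF7 and GSK3B were lower in pairs 1 and 2 and higher in pair 3, while WNT5A was higher in pair 1 and lower in pairs 2 and 3. The targeted gene NELFCD was left at 31.5%, 42.4% and 48.2% of control in pairs 1 to 3 (difference -0.52, adjusted p = 0.0029), and its part in these differences was not tested. The error of this test rests on replicates 2 and 3, whose chi-square per degree of freedom was 2.02 in the knockdown and 2.16 in the control.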

How the results depend on the processing

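Calls depended on the replicate term. Without it edgeR called 0 of all genes and 0 Wnt pathway genes with TMM, DESeq2 size factors, upper-quartile scaling, no filter, a mean of at least 10 counts or any single library left out, limma-voom also called 0, and DESeq2 called 161 genes with 1 Wnt pathway gene, WNT7B. The replicate block gave 2002 genes with 7 Wnt pathway genes in edgeR, 1358 with 7 in DESeq2 and 2130 with 7 in limma-voom. It gave 2184 with 9 under upper-quartile scaling, 2888 with 8 with no filter, and 932 to 4090 with 4 to 12 when 1 replicate pair was left out (without pair 2, 932 with 4, and without pair 3, 1760 with 5). A batch term for replicate 1 gave 3117 with 9, and replicates 2 and 3 alone gave 3758 with 12. WNT5B, FZD2, FZD6 and DKK3 were called in each of the 10 fits with a replicate term or without replicate 1, FZD4 in 8, SFRP1 in 7 and WNT7B in 6. The share of rises among blocked calls was 40.6% with TMM, 54.9% with upper-quartile scaling and 32.8% in DESeq2.

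The median log2 fold change of the 34 genes ran from -0.20 to -0.07. NELFCD was at -1.27 without the block (adjusted p = 0.53). It passed at -1.30 with the block or the batch term, -1.15 in replicates 2 and 3, -1.28 in DESeq2, and, with the block, -1.26 under upper-quartile scaling, -1.32 in DESeq2 and with no filter, and -1.29 in limma-voom. With 1 library or pair left out it ran from -1.45 to -1.03 (-1.34 with the block without pair 2). Without the block, 16 of the 34 tested Wnt pathway genes turned direction when some single library was left out, and with the block 8 turned when some pair was left out, none of them among the 7 called. Of the called genes and those tracked in every fit, 3 turned without the block: FZD4 ran from -0.38, without knockdown replicate 1, to 1.52, DKK1 ran from -0.23 to 0.71 and TLE4 from -0.13 to 0.70 over the libraries left out, and the cause was not tested. With a replicate left out of 1 arm, the fit pools the spread of both groups.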

Other observations

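Several Wnt pathway genes differed more between replicate 1 and the other replicates than between knockdown and control. WNT9A was at 5.98 and 5.62 CPM in replicate 1 of the knockdown and the control and at 0.125 to 0.364 CPM in the other 4 libraries. WNT2B, another ligand, was at 10.8 and 11.6 CPM in replicate 1 of the knockdown and the control and at 1.56 to 2.61 CPM in the others. FZD4 was at 42.1 and 35.2 CPM there, against 7.86 to 14.8 CPM in the others. DKK1 went the other way, at 12.9 and 9.39 CPM in replicate 1 of the knockdown and the control and at 57.8 to 71.8 CPM in the others. These are values of single libraries, with no test.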
